A study of Homo sapiens with 6 samples.

Results

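Notch signalling genes were examined in the RNA-Seq data of A549 cells, a human lung adenocarcinoma cell line. The set comprised 10 genes of the 23180 gene symbols in the deposited counts, chosen by name with earlier results of these data known. It held the ligands JAG1, JAG2 and DLL1, the receptors NOTCH1, NOTCH2 and NOTCH3, the coactivator MAML2 and the target genes HES1, HEY1 and NRARP. Where a symbol had several transcripts, the one with the most counts over all samples stood for it. The comparison was between 3 samples transfected with a control siRNA (siControl) and 3 samples transfected with siKMT9α#1, an siRNA against KMT9α, the catalytic subunit of a methyltransferase that writes a mark on histone H4. All samples carried the wild-type label for genotype, were at passage 11, received 65 nM siRNA with DharmaFECT 1 and were harvested 3 days after transfection. Since 1 siRNA against KMT9α was sequenced, loss of KMT9α and any other effect of that siRNA cannot be told apart.

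Notch receptors are single-pass membrane proteins that bind Jagged and Delta-like ligands on neighbouring cells. Ligand binding lets ADAM metalloproteases and then γ-secretase cut the receptor, and the freed intracellular domain enters the nucleus, where it joins the DNA-binding protein RBPJ and a coactivator of the Mastermind family at target genes. The best known targets are some of the HES and HEY genes, which mostly encode repressors of transcription. In the airway, Notch signalling is known for setting the balance between secretory and ciliated cells.

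The samples held between 13740097 and 19832395.5 counts on these transcripts, and edgeR's filter on low counts kept 13877 genes. KMT9α mRNA, listed as N6AMT1, was lower in all siKMT9α#1 samples, with a log2 fold change of -1.77 (SE 0.12, quasi-likelihood adjusted p = 1.43e-10). Within a group, replicates differed by more than sampling noise (chi-square per gene between 1.34 and 5.15), and samples of different groups differed far more (between 104 and 141). The labels call the replicates biological, and the sources used here do not say whether they were separate transfections. Epithelial markers summed to between 3210 and 3580 CPM (counts scaled to a common library size with edgeR's TMM factors) in siControl and to between 1720 and 1820 CPM in siKMT9α#1, with KRT8, KRT18, KRT19 and EPCAM lower and CDH1 higher. Of the 12 markers of fibroblasts, endothelial cells and leukocytes, 6 had under 3 counts in every sample. The fibroblast list summed to between 6.51 and 8.15 CPM in siControl and between 3.00 and 3.22 CPM in siKMT9α#1, the endothelial list to between 0.598 and 1.05 and between 0.0756 and 0.438 CPM, and the leukocyte list, mostly CD68, to between 81.5 and 88.2 and between 29.0 and 30.3 CPM. The part of these shifts in the results below was not tested. In bulk RNA, fewer cells with a transcript and less of it per cell cannot be told apart.

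All 10 Notch genes, chosen with earlier results of these data known, were higher upon KMT9α knock-down. Each had at least 10 counts in every sample, and each passed an adjusted p under 0.05, which 37.1% of all genes tested passed in the higher direction and 38.5% in the lower. Under a stricter threshold, which asked for P below 1e-08 together with a log2 fold change beyond 0.26 in either direction, 6 genes were higher (JAG1, NOTCH1, NOTCH2, NOTCH3, MAML2 and HES1) and 0 were lower, against 13.5% higher and 10.7% lower of all genes tested. In all 10 genes every siKMT9α#1 sample lay above every siControl sample, an order found in 37.6% of all genes tested, with the opposite order in 39.4%. Across the 10 genes the log2 fold changes had a median of 1.57, against -0.01 across all genes tested. Permuting the samples gave an exact two-sided p of 0.1 for each of the 10 genes, the smallest that groups of 3 allow. Scaling by library size alone moved the median over all genes to -0.12 and turned the 1878 higher and 1479 lower genes at the stricter threshold into 1516 and 1862. Under it, all 10 Notch genes were still higher with an adjusted p under 0.05.

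**Figure D1:**
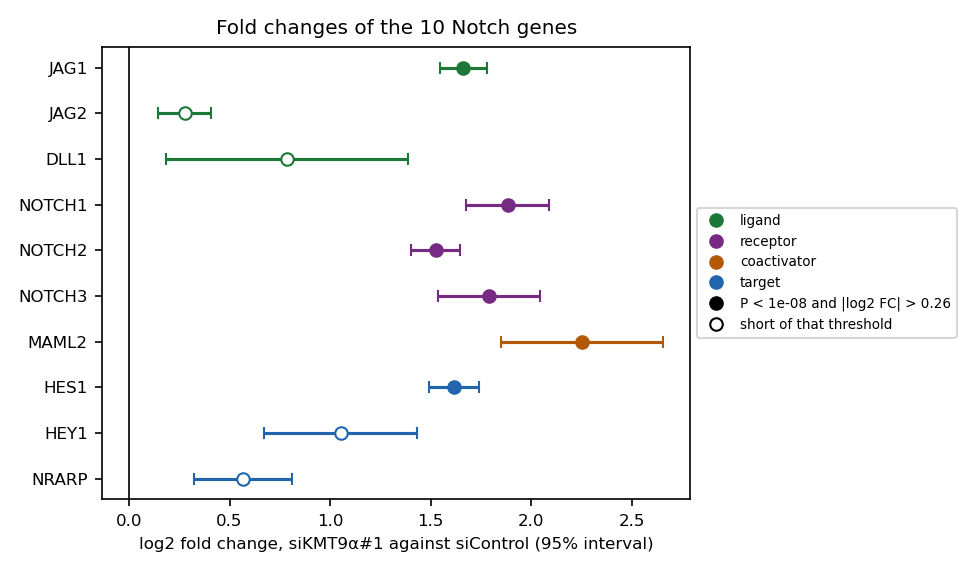
Log2 fold changes (siKMT9α#1 against siControl) of the 10 Notch genes with 95% confidence intervals derived from edgeR's quasi-likelihood fit (n = 3 per group), coloured by role. Filled points passed the stricter threshold (P below 1e-08, change beyond 0.26). All intervals lie above 0, with MAML2 highest at 2.25 and JAG2 lowest at 0.28.

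JAG1 was the most abundant ligand and the one with the largest change. It is listed as NM_000214 on the minus strand of chromosome 20 of hg19, from 10618332 to 10654694. In the order of the replicate numbers, JAG1 was at 180.4, 158.5 and 164.8 CPM with siControl and at 514.2, 520.6 and 559.8 CPM with siKMT9α#1. The groups were far apart relative to the spread within each, with means of 168 ± 11.3 and 532 ± 24.7 CPM (SD, n = 3 each). This is a log2 fold change of 1.66 (SE 0.06, quasi-likelihood adjusted p = 2.45e-15). An annotated long noncoding RNA overlaps this span on the opposite strand. Where their exons share bases and counting ignored strand, reads of the pair cannot be told apart.

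JAG2, the second Jagged ligand (NM_002226, chromosome 14 from 105608076 to 105635161, minus strand), changed little in comparison. It was at 30.2, 28.6 and 31.1 CPM with siControl and at 35.1, 37.01 and 36.8 CPM with siKMT9α#1. The gap between the groups was narrow, and no sample crossed it. The log2 fold change was 0.28 (SE 0.06, 95% confidence interval 0.15 to 0.41, quasi-likelihood adjusted p = 0.00057), and with the library size alone it was 0.17. The interval of JAG1, 1.55 to 1.78, lies wholly above that of JAG2. The second listed transcript of JAG2, NM_145159, gave 0.28 as well. A long noncoding RNA annotated on the same strand overlaps the span of JAG2, and counting by strand could not separate their reads where exons share bases.

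DLL1, a Delta-like ligand (NM_005618, chromosome 6 from 170591294 to 170599697, minus strand), had the lowest mean per kilobase of transcript among the 10 genes. Its counts were 11, 11 and 10 with siControl and 15.5, 13 and 17.5 with siKMT9α#1. The means were 0.594 ± 0.080 and 1.01 ± 0.14 CPM (SD, n = 3 each), and the fitted log2 fold change was 0.78 (SE 0.29, quasi-likelihood adjusted p = 0.0217). This call did not hold throughout: the adjusted p was 0.159 with DESeq2, 0.0685 without siControl replicate 3 and 0.0816 without siKMT9α#1 replicate 1.

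The 3 receptors rose from very different starting levels, by 2.88 to 3.66 times in mean CPM. NOTCH2, the most abundant of the 3 receptors (NM_024408, chromosome 1 from 120454176 to 120612317, minus strand), was at 97.3, 91.0 and 82.1 CPM in siControl and at 254.6, 252.5 and 270.3 CPM in siKMT9α#1. All siKMT9α#1 samples were at least 252.5 CPM, far from the siControl range. NOTCH2 thus had a log2 fold change of 1.53 (SE 0.06, quasi-likelihood adjusted p = 1.63e-14). The counts of NOTCH2 carry some uncertainty, since the 5′ part of the gene has a near-identical partial copy, NOTCH2NL. NOTCH2NL itself had 220.5, 199 and 257.5 counts with siControl and 175, 186.5 and 232.5 with siKMT9α#1, a log2 fold change of 0.05 (SE 0.09, quasi-likelihood adjusted p = 0.624 in the fit of every transcript). The shorter NOTCH2 transcript, NM_001200001, gave a log2 fold change of 1.51 in the same fit.

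NOTCH1 (NM_017617, chromosome 9 from 139388896 to 139440238, minus strand) was at 8.04, 8.06 and 8.89 CPM in siControl and at 28.6, 28.03 and 35.0 CPM in siKMT9α#1. Replicate 3 of siKMT9α#1 stood above the other two, which were almost equal. Its log2 fold change was 1.88 (SE 0.10, quasi-likelihood adjusted p = 1.73e-12), and without that replicate it was 1.76. NOTCH3 (NM_000435, chromosome 19 from 15270444 to 15311792, minus strand) was at 4.43, 3.46 and 3.74 CPM in siControl and at 12.7, 12.9 and 14.7 CPM in siKMT9α#1. Its log2 fold change was 1.79 (SE 0.12, quasi-likelihood adjusted p = 8.01e-11). The 95% confidence intervals of the receptors were 1.40 to 1.65 for NOTCH2, 1.54 to 2.04 for NOTCH3 and 1.68 to 2.09 for NOTCH1, so that those of NOTCH2 and NOTCH1 did not overlap. The span of NOTCH1 also overlaps a microRNA gene, MIR4673, and an antisense noncoding RNA.

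MAML2 encodes a Mastermind-like protein, which bridges the Notch intracellular domain on RBPJ to histone acetyltransferases. From a low level, it changed by the largest factor among the 10 genes. MAML2 (NM_032427, chromosome 11 from 95711440 to 96076344, minus strand) had 19, 13 and 23 counts with siControl and 66, 59 and 99 counts with siKMT9α#1. After scaling, the means were 1.00 ± 0.20 and 4.83 ± 0.46 CPM (SD, n = 3 each), and the log2 fold change was 2.25 (SE 0.19, quasi-likelihood adjusted p = 2.82e-09). The span overlaps MIR1260B and an antisense noncoding RNA. The 2 other Mastermind genes rose less on this scale, MAML1 with a log2 fold change of 0.78 (95% confidence interval 0.67 to 0.89) and MAML3 with 0.93 (0.79 to 1.07).

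**Figure D2:**
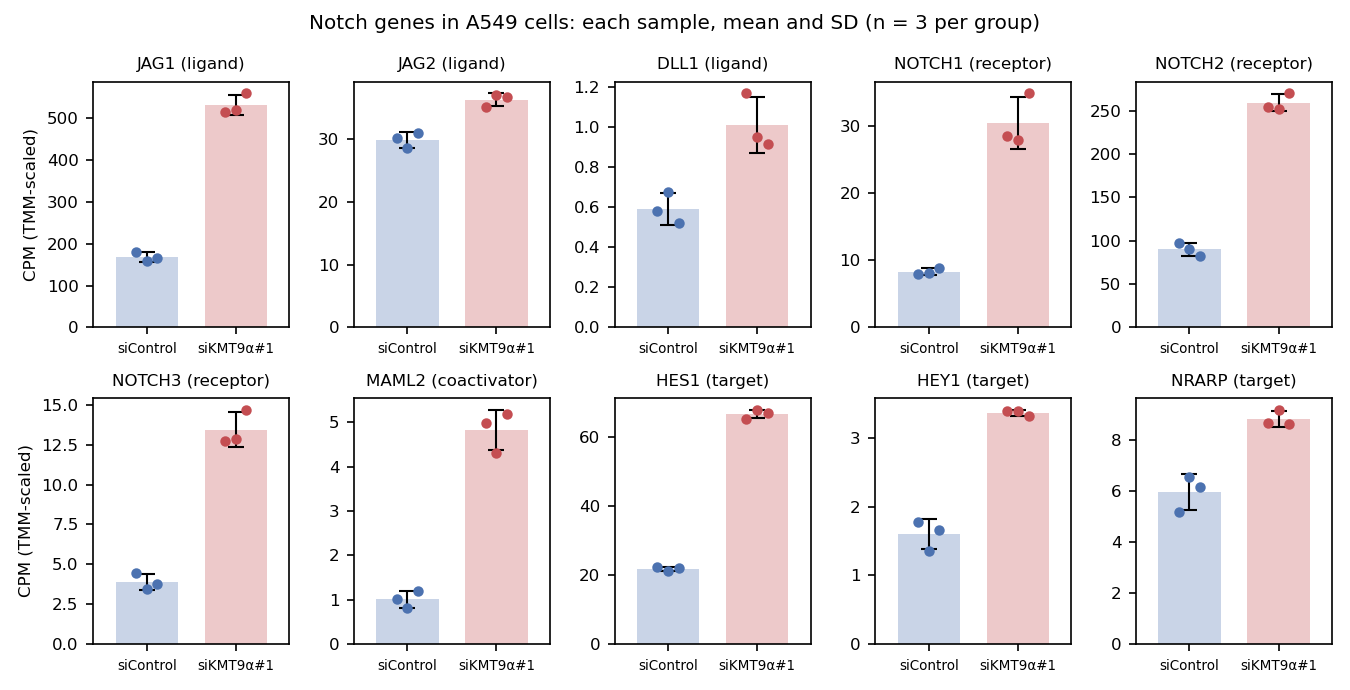
CPM (scaled by TMM factors, linear axes from 0) of the 10 Notch genes in each siControl and siKMT9α#1 sample (points), with the mean (bar) and SD (error bar) of 3 samples. No siKMT9α#1 point falls within the siControl range of its gene, and the gap is widest relative to the spread for HES1, at 21.8 ± 0.65 against 66.8 ± 1.22 CPM, and narrowest for DLL1, followed by JAG2 and NRARP.

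HES1 is the classical Notch target, a basic helix-loop-helix repressor that also acts on its own promoter. It is listed as NM_005524 on the plus strand of chromosome 3, from 193853931 to 193856401. HES1 was at 22.3, 21.1 and 22.0 CPM in siControl and at 65.4, 67.8 and 67.1 CPM in siKMT9α#1. Both groups were tight, with SDs of 0.65 and 1.22 CPM. HES1 had a log2 fold change of 1.62 (SE 0.06, quasi-likelihood adjusted p = 8.24e-15).

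NRARP, a small ankyrin repeat protein that is induced by Notch and dampens it, rose less. It is listed as NM_001004354 on the minus strand of chromosome 9, from 140194083 to 140196703, where an antisense noncoding RNA overlaps it. NRARP was at 5.20, 6.55 and 6.19 CPM in siControl and at 8.69, 9.21 and 8.63 CPM in siKMT9α#1. The lowest siControl value was in replicate 1, and the groups did not overlap. NRARP had a log2 fold change of 0.57 (SE 0.12, 95% confidence interval 0.32 to 0.81, quasi-likelihood adjusted p = 0.000213), and the interval of HES1, 1.49 to 1.74, lies above it.

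The promoters of these targets are shown because RBPJ, the factor that Notch uses on DNA, binds sites with the core TGGGAA. RefSeq (GRCh38.p14) gives 300 bases per gene, 250 before and 50 after the start. The search covered 8 of the 10 genes, without DLL1 and HEY1. Both strands were searched for TGGGAA and for the longer form GTGGGAA, which contains it. Of 35116 promoters, 24.0% hold TGGGAA, 3.8% hold it at least 2 times and 6.25% hold GTGGGAA. Capitals mark the matches, in the direction of the gene. The HES1 promoter (chr3:194135898-194136197, plus strand) holds TGGGAA 2 times, from -84 to -79 and from -70 to -65 relative to the first base of the annotated transcript at +1, and the first of them is part of GTGGGAA. The NRARP promoter (chr9:137302222-137302521, minus strand) and those of JAG1, JAG2, NOTCH1, NOTCH2, NOTCH3 and MAML2 hold 0 matches in this window.
HES1: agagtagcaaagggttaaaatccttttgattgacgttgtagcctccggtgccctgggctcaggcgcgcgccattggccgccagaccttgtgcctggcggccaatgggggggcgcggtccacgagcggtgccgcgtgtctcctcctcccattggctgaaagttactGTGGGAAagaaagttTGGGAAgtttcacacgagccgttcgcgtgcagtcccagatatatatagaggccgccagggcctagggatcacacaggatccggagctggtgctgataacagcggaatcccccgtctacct
NRARP: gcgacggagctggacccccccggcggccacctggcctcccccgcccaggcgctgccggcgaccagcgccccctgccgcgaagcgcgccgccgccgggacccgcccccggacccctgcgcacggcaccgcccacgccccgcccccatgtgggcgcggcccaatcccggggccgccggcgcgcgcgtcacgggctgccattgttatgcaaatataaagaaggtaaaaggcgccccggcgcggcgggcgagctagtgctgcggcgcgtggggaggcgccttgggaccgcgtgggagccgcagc

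HEY1, the Hairy-related repressor, completed the targets. HEY1 (NM_001040708, chromosome 8 from 80676245 to 80680098, minus strand) had few reads, 33.5, 22 and 32 with siControl and 45, 46.5 and 63.5 with siKMT9α#1. Scaled, it was at 1.78, 1.36 and 1.66 CPM against 3.40, 3.40 and 3.32 CPM. The siKMT9α#1 samples were nearly equal, and their mean was 2.11 times that of siControl. The log2 fold change was 1.05 (SE 0.18, quasi-likelihood adjusted p = 3.22e-05), and the second transcript of HEY1, NM_012258, gave 1.03.

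Levels were compared between genes only per kilobase of transcript length. In siControl the order from high to low was JAG1 (28.3 ± 1.90 CPM per kb), HES1 (14.98 ± 0.45), NOTCH2 (7.91 ± 0.67), JAG2 (5.96 ± 0.25), NRARP (2.28 ± 0.27), NOTCH1 (0.903 ± 0.052), HEY1 (0.697 ± 0.095), NOTCH3 (0.484 ± 0.063), MAML2 (0.185 ± 0.036) and DLL1 (0.181 ± 0.024), each as mean and SD of 3 samples. The ranges of neighbours in this order did not overlap, except those of MAML2 and DLL1. In siKMT9α#1 JAG1 was at 89.5 ± 4.16, HES1 at 45.9 ± 0.84 and NOTCH2 at 22.7 ± 0.85 CPM per kb (SD, n = 3 each). The order there was the same apart from NOTCH3, which was above HEY1, and the ranges of NRARP and NOTCH1 overlapped.

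**Figure D3:**
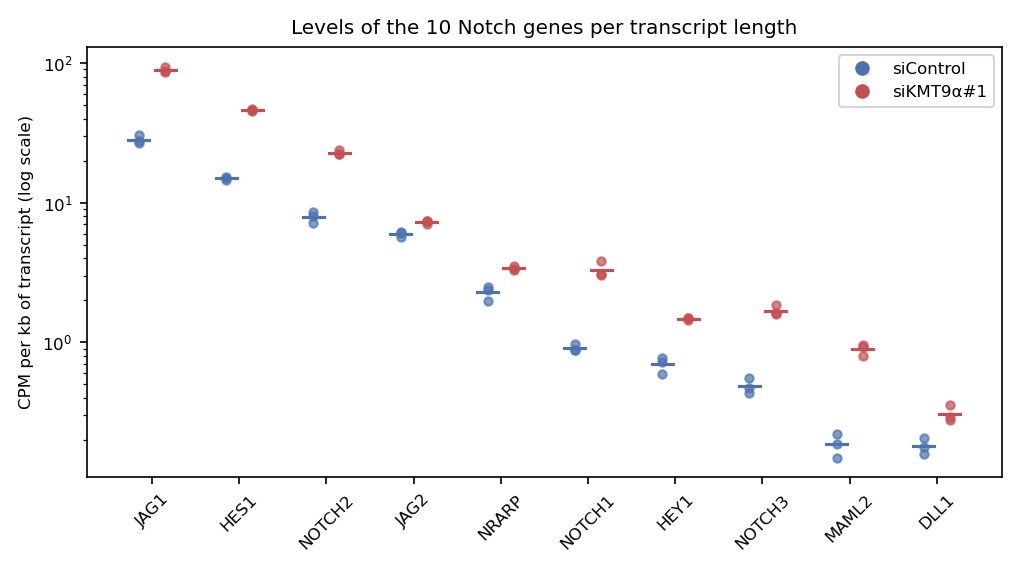
CPM per kb of transcript (log scale) of the 10 Notch genes, ordered by their siControl mean. Points are samples, and lines are the means of 3 samples. JAG1, HES1 and NOTCH2 lead in both groups. DLL1 has the lowest mean in both, and its siControl range overlaps that of MAML2.

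Among the 3 ligands of the set, JAG1 became more dominant. The ligand genes DLL3 and DLL4, outside the set, had 8.66 and 2.11 CPM per kb in siControl and 5.22 and 4.83 in siKMT9α#1. Per length, JAG1 made up 83.1%, 81.9% and 81.4% of the 3 ligands in the siControl samples and 92.2%, 92.0% and 92.5% in the siKMT9α#1 samples, while JAG2 went from 17.3 ± 0.86% to 7.45 ± 0.27% (SD, n = 3 each). The receptor mixture moved less. NOTCH2 made up 85.7%, 86.0% and 83.4% of the 3 receptors with siControl and 82.7%, 82.7% and 80.8% with siKMT9α#1, which leaves a narrow gap between the groups. Among the targets, HES1 went from 83.4 ± 1.20% to 90.5 ± 0.20% and NRARP from 12.7 ± 1.64% to 6.65 ± 0.17% of the 3 genes (SD, n = 3 each).

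The rest of the pathway was read from a list of 62 further genes, also chosen with earlier results of these data known. Of these, 58 passed the filter on low counts. At an adjusted p under 0.05, 30 were higher (51.7%, against 37.1% of all genes tested), 18 were lower (31.0%, against 38.5%) and 10 did not pass. At the stricter threshold 20 were higher (34.5%, against 13.5%) and 4 were lower (6.9%, against 10.7%). The median log2 fold change over the 58 genes was 0.25, against -0.01 over all genes tested. Among the other ligands, DLL4, a Delta-like ligand prominent in endothelium, rose from 7.19 to 16.4 CPM (log2 fold change 1.19, SE 0.09, quasi-likelihood adjusted p = 6.25e-10). DLL3, a ligand that inhibits Notch within the cell that makes it, fell from 20.5 to 12.4 CPM (log2 fold change -0.73, SE 0.10, quasi-likelihood adjusted p = 2.32e-06). DLK1, a non-canonical ligand, had at most 2 counts in any sample.

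Of 5 genes for sugar modification of the receptor, 2 were higher, 1 was lower and 2 did not pass an adjusted p under 0.05. Among all genes tested, 37.1% were higher and 38.5% lower, and a difference of these 5 genes from those shares was not tested. At the stricter threshold 0 of the 5 were called, against 13.5% higher and 10.7% lower of all genes tested. All 9 genes for receptor cleavage passed an adjusted p under 0.05, with 5 higher (55.6%, against 37.1% of all genes tested) and 4 lower (44.4%, against 38.5%). At the stricter threshold 2 of the 9 were higher (22.2%, against 13.5%) and 2 were lower (22.2%, against 10.7%). ADAM10, the protease that makes the ligand-dependent cut, had 54.1 CPM with siControl and 234 CPM with siKMT9α#1 (log2 fold change 2.11, SE 0.07, quasi-likelihood adjusted p = 2.96e-15). Its span overlaps the pseudogene HSP90AB4P. The γ-secretase subunit genes PSENEN and APH1B were lower, with log2 fold changes of -0.99 and -0.91, and both reached the stricter threshold. Other subunit genes went both ways, among them NCSTN at -0.28, PSEN2 at 0.39 and APH1A at 0.28, each short of that threshold.

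RBPJ, through which the members of the pathway reach DNA, was lower in every siKMT9α#1 sample. It had 1000.5, 843.5 and 1030.5 counts with siControl and 145.5, 174 and 250.5 with siKMT9α#1, which is 52.9 against 12.3 CPM. The log2 fold change was -2.10 (SE 0.07, quasi-likelihood adjusted p = 3.59e-15), and all 4 listed transcripts of RBPJ gave values between -2.11 and -2.10. The annotated 3′ UTR of RBPJ holds 2 copies of ACATTCA, the letters complementary to bases 2 to 8 of the guide strand of siKMT9α#1. Of 12257 genes tested with an annotated 3′ UTR, 16.8% hold at least 1 copy and 3.19% at least 2. Among the 10 Notch genes only NOTCH2 holds it, with 1 copy. Of the 58 further pathway genes tested, 8 hold it. At an adjusted p under 0.05, 6 of these were higher (75.0%, against 51.7% of the 58 and 37.1% of all genes tested). They were AAK1 with 3 copies, SPEN with 2, and ADAM17, EP300, CREBBP and ITCH with 1 each. The other 2 were lower (25.0%, against 31.0% and 38.5%), RBPJ with 2 copies and APH1B with 1. The UTR searched was the longest annotated one, of 4124 bases for RBPJ, 12875 for SPEN and 17872 for AAK1. The part of these sites in any of these levels was not tested.

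The other genes of the nuclear complex mostly rose. Of the 15 genes beside RBPJ, 12 rose (80.0%, against 37.1% of all genes tested) and 2 fell (13.3%, against 38.5%) with an adjusted p under 0.05. At the stricter threshold 10 were higher (66.7%, against 13.5%) and 1 was lower (6.67%, against 10.7%). The 2 that fell were TLE2 and CIR1, with log2 fold changes of -1.90 and -0.72. The group holds both coactivators and co-repressors, and members of each kind were higher. TLE4, a Groucho-type co-repressor that works with HES proteins, went from 15.3 to 50.3 CPM (log2 fold change 1.72, SE 0.07, quasi-likelihood adjusted p = 2.13e-14). SPEN, a co-repressor that binds RBPJ, had a log2 fold change of 1.37, and the acetyltransferase genes EP300 and CREBBP had 0.68 and 0.77.

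Of 15 genes tested for endocytosis and turnover of ligands and receptors, 7 passed an adjusted p under 0.05 as higher (46.7%) and 5 as lower (33.3%), shares near those of all genes tested (37.1% and 38.5%). At the stricter threshold 4 were higher (26.7%, against 13.5% of all genes tested) and 0 were lower, against 10.7%. NUMB, an adaptor that promotes removal of the receptor, rose from 36.5 to 82.1 CPM (log2 fold change 1.17, SE 0.05, quasi-likelihood adjusted p = 1.98e-13). AAK1, an endocytic kinase, rose from 20.8 to 45.2 CPM (log2 fold change 1.12, SE 0.07, quasi-likelihood adjusted p = 1.06e-11). DTX1, a Deltex ubiquitin ligase that is itself a Notch target in other cells, went from 28.5, 32.5 and 31 counts to 1.5, 3 and 4 counts (log2 fold change -3.05, SE 0.34, quasi-likelihood adjusted p = 1.38e-07).

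Of the 7 other HES and HEY genes, HES5 had 0 counts in all 6 samples. At an adjusted p under 0.05, 0 of the 6 tested were higher (37.1% of all genes tested were), 4 were lower (66.7%, against 38.5%) and 2 did not pass, with a median log2 fold change of -0.54 over the 6 tested. HES2 had a log2 fold change of -1.40 (95% confidence interval -2.03 to -0.78), HES6 of -0.64 (-0.91 to -0.37), HEY2 of -0.66 (-1.22 to -0.10) and HES4 of -0.45 (-0.78 to -0.12). None of them reached the stricter threshold, and all 4 were at most 10.7 CPM on average in either group. The call of HES4 was lost without siControl replicate 2, where its log2 fold change was -0.23 (quasi-likelihood adjusted p = 0.129), and without siKMT9α#1 replicate 1 (-0.36, adjusted p = 0.056). HEY2 lost it in 7 alternatives, among them DESeq2 (adjusted p = 0.188) and the fits without siControl replicate 1, siControl replicate 2 or siKMT9α#1 replicate 2 (adjusted p = 0.057, 0.116 and 0.138).

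Of 4 genes known as Notch targets in other cell types, 3 were higher at the stricter threshold (75.0%, against 13.5% of all genes tested). At that threshold 0 were lower, against 10.7%. SOX9, a transcription factor of distal lung progenitors, went from 7.05 to 53.8 CPM (log2 fold change 2.93, SE 0.08, quasi-likelihood adjusted p = 1.47e-16), with the antisense RNA SOX9-AS1 over its span. CCND1, which encodes cyclin D1, had a log2 fold change of 1.07 and MYC one of 0.96. CDKN1A did not pass (0.04, 95% confidence interval -0.07 to 0.14).

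**Figure D4:**
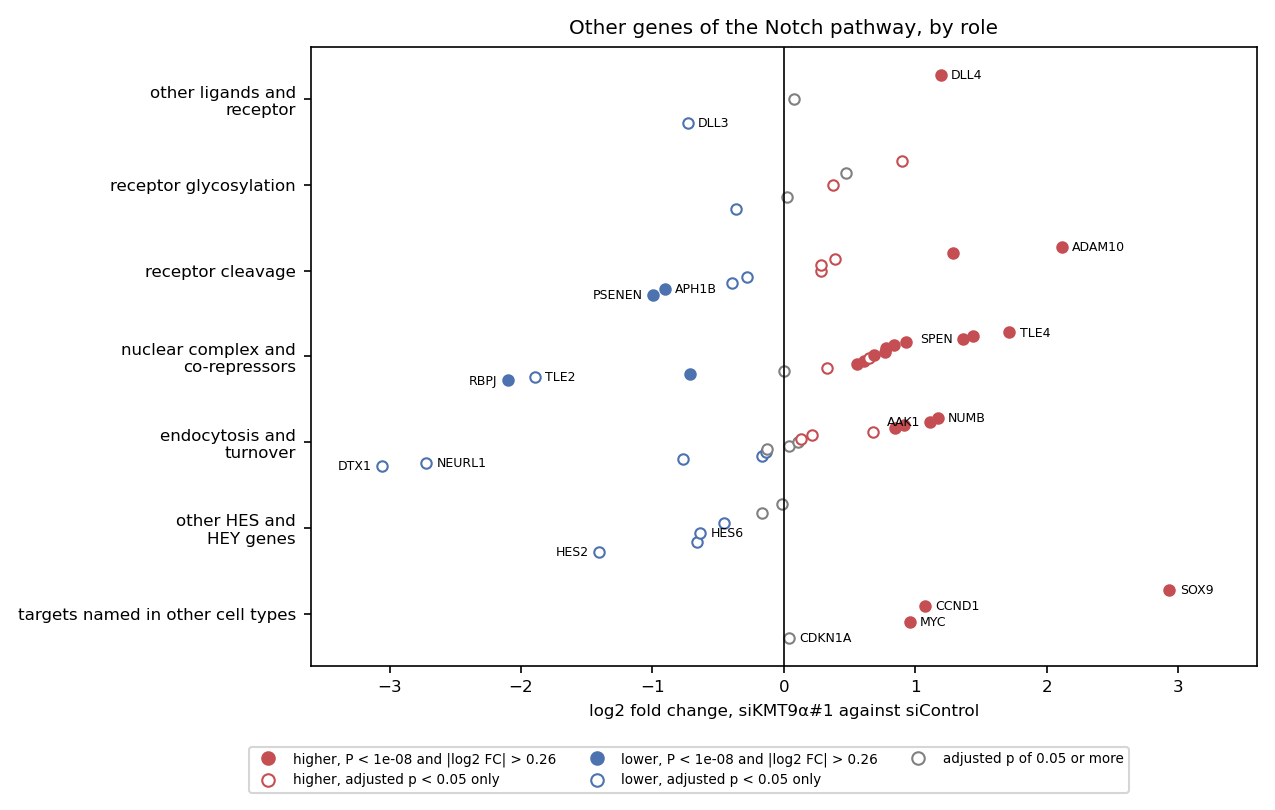
Log2 fold changes (siKMT9α#1 against siControl) of the 58 further Notch pathway genes tested, 1 point per gene, by role. Filled points passed the stricter threshold, open coloured points only an adjusted p under 0.05, and grey points neither. ADAM10 at 2.11 and SOX9 at 2.93 lie far to the right, RBPJ at -2.10 far to the left, and 0 of the other HES and HEY genes lies to the right of 0.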

How the data were processed

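RNA-Seq of 6 A549 samples was analysed. The authors aligned reads to hg19 with STAR and counted them per RefSeq transcript (HOMER, analyzeRepeats). The estimated counts were deposited without normalization. Whether strand was used in counting is not given in the sources used here. The table also holds the authors' fold changes and p-values, which were not used. For each symbol the transcript with most counts over all samples was kept, which left 23180 of 37585 transcripts. The 1182 rows without symbol or counts were left out. Counts were rounded and tested with edgeR 4.0.16 (R 4.3.3; TMM, filterByExpr, quasi-likelihood F test, two-sided, Benjamini-Hochberg over 13877 genes). The fit was tested on simulated data. Each SE was the absolute log2 fold change over the square root of the F statistic. The 95% confidence intervals used this SE and the t distribution. CPM were computed from the counts with TMM-scaled library sizes. Totals between 13740097 and 19832395.5 counts per sample set the precision. Alternatives were other scalings, tests (DESeq2 1.42.0), filters and transcript choices, a replicate block and left-out samples.

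The members and gene lists were chosen with earlier results of these data known. Named beside the 10 members were, in each role of the pathway list, up to 2 genes with the largest absolute log2 fold change past the threshold of P below 1e-08 and 0.26, and ligand, receptor, HES and HEY genes under 3 counts per library. RBPJ, ADAM10, TLE4, NUMB, AAK1, SOX9, CCND1, DLL4, DLK1 and HES5 met this rule, and 1 further gene that did is not reported here. DLL3, DTX1, HES2, HES4, HES6, HEY2, PSENEN, APH1B, MAML1, MAML3, SPEN, EP300, CREBBP, MYC, CDKN1A and NOTCH2NL were named after their values were seen. So were NCSTN, PSEN2, APH1A, TLE2 and CIR1. Promoters came from RefSeq (GRCh38.p14), and strands, neighbouring genes and 3′ UTRs from GENCODE 44 lifted to GRCh37.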

Additional observations from a re-analysis of the deposited data

How the results depend on the processing

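The alternatives gave 163 log2 fold changes, counting each of the 10 Notch genes, or a transcript of it, in each fit separately. All 163 had the direction reported above, and in 160 the adjusted p also stayed under 0.05. The other 3 concern DLL1, which had a log2 fold change of 0.81 with DESeq2 (adjusted p = 0.159) and ranged from 0.68 to 0.89 with 1 sample left out (edgeR's quasi-likelihood adjusted p = 0.0816 and 0.0685 in the fits that lost the call). The cause was not tested. JAG2 went from 0.28 to 0.17 with the library size alone. At the stricter threshold 3357 genes of the whole table were called, against 5962 with the likelihood-ratio test, 6070 with no filter and 2164 with all transcripts of a symbol summed. The Notch genes called there were 6 in these fits, except 5 with transcripts summed. In the fit with a replicate block, 2342 genes and the same number of Notch genes, 6, passed the stricter threshold, and no call on a Notch gene changed. The same-numbered samples deviated from their group means with correlations of -0.16, 0.06 and -0.13 for replicates 1 to 3, so the numbers were not taken as pairs. Depth limits DLL1, MAML2 and HEY1, which had fewer than 35 counts in each siControl sample.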
